A study of Mus musculus with 10 samples.

Results

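The genes described here are 10 amino acid transporter genes of the plasma membrane that are widely studied for the supply of amino acids to growing tumours, measured in mouse melanoma cells sorted by the level of c-Myc. They were taken by name from the deposited table, which holds 34162 gene names, and the counts of all transcripts of a name were summed. The genes are Slc7a5, Slc3a2, Slc7a6, Slc43a2, Slc7a1, Slc1a5, Slc1a4, Slc38a1, Slc38a2 and Slc6a9. All 10 were among the 16805 genes with enough counts to be tested.

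The cells came from mice of a mixed C57BL/6:SV129 strain and were separated by flow cytometry from fresh melanomas, either primary tumours in the skin or metastatic tumours in lymph nodes. Cells with GFP are named c-Myc-high and cells without GFP c-Myc-low, and the labels describe every group as sorted melanoma cells, with no normal skin or lymph node among them. The groups were primary c-Myc-high (n = 2), primary c-Myc-low (n = 2), metastatic c-Myc-high (n = 3) and metastatic c-Myc-low (n = 3), 10 RNA sequencing libraries in all. Whether the replicates of a group are separate animals is not in the labels. A p-value here thus reflects the variation among these libraries, part of which may be technical. The driver of the GFP reporter, the alleles that gave rise to the tumours and the age of the animals were not among the information used here.

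Cells cannot make the essential amino acids and import them through carriers of the solute carrier (SLC) families. Slc3a2 encodes the CD98 heavy chain, a glycoprotein that brings light chains such as the Slc7a5 product (LAT1) and the Slc7a6 product (y+LAT2) to the cell surface. LAT1 takes up leucine and other large neutral amino acids in exchange for intracellular ones, and leucine activates the growth kinase complex mTORC1. Slc1a5 (ASCT2) exchanges glutamine and other small neutral amino acids, and Slc38a1 (SNAT1) and Slc38a2 (SNAT2) accumulate glutamine and alanine with sodium. In many tumours c-Myc is known to raise transcription of several of these genes, Slc7a5 and Slc1a5 among them.

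Between sites, edgeR called 2 of the 10 genes, and both calls ended under some other settings, given with each gene. Slc7a6 was lower in metastatic than in primary cells, with mean levels of 10.1 and 55.3 CPM (counts scaled to library size), and Slc38a1 was higher, with means of 92.0 and 2.75 CPM. Slc1a5 had a mean of 192 CPM in metastatic and 16.5 CPM in primary cells, without overlap between the sites, and fell on either side of the threshold depending on how repeated transcript entries were counted. Between the c-Myc classes, none of the 10 genes passed the test at either site or over both. Levels of Slc7a5, Slc1a5 and Slc7a1 in the 2 primary c-Myc-high libraries lay far apart.

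CPM values here use library sizes corrected with edgeR's TMM factors. A gene is called where the adjusted p of edgeR's quasi-likelihood test, corrected over all 16805 genes by the Benjamini-Hochberg method, is under 0.05. Total counts ranged from 1603012 to 6844328 per library, and 3 counts, taken as the limit that a count of 0 allows, were worth 0.362 to 2.80 CPM. The shallowest library, primary c-Myc-high replicate 2, held 7932 genes with 10 or more counts, against up to 15630 in the others. Replicates were far apart, with a common biological coefficient of variation of 0.876, and limits and errors from counts cover counting error only.

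Transcripts of other cell types moved with site. The summed CPM of 18 keratinocyte markers was 31440 to 99940 in primary and 35.1 to 491.9 in metastatic libraries. That of 10 pan-leukocyte markers was 15.9 to 48.0 in primary and 277 to 5140 in metastatic libraries. In metastatic c-Myc-high replicates 1 and 3, 12 salivary gland markers summed to 220823 and 67521 CPM, against 818 at most in the other libraries. Melanocyte markers summed to 671 to 3072 CPM in primary and 2997 to 21510 CPM in metastatic libraries, and the pigment cell gene Dct was detected in every library. Myc itself overlapped between the classes, with 997 and 104 CPM in primary c-Myc-high cells, 162 and 318 in primary c-Myc-low cells, 148, 267 and 234 in metastatic c-Myc-high cells and 101, 231 and 317 in metastatic c-Myc-low cells. In such bulk samples, fewer cells of a type and less RNA per cell cannot be told apart.

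**Figure D1:**
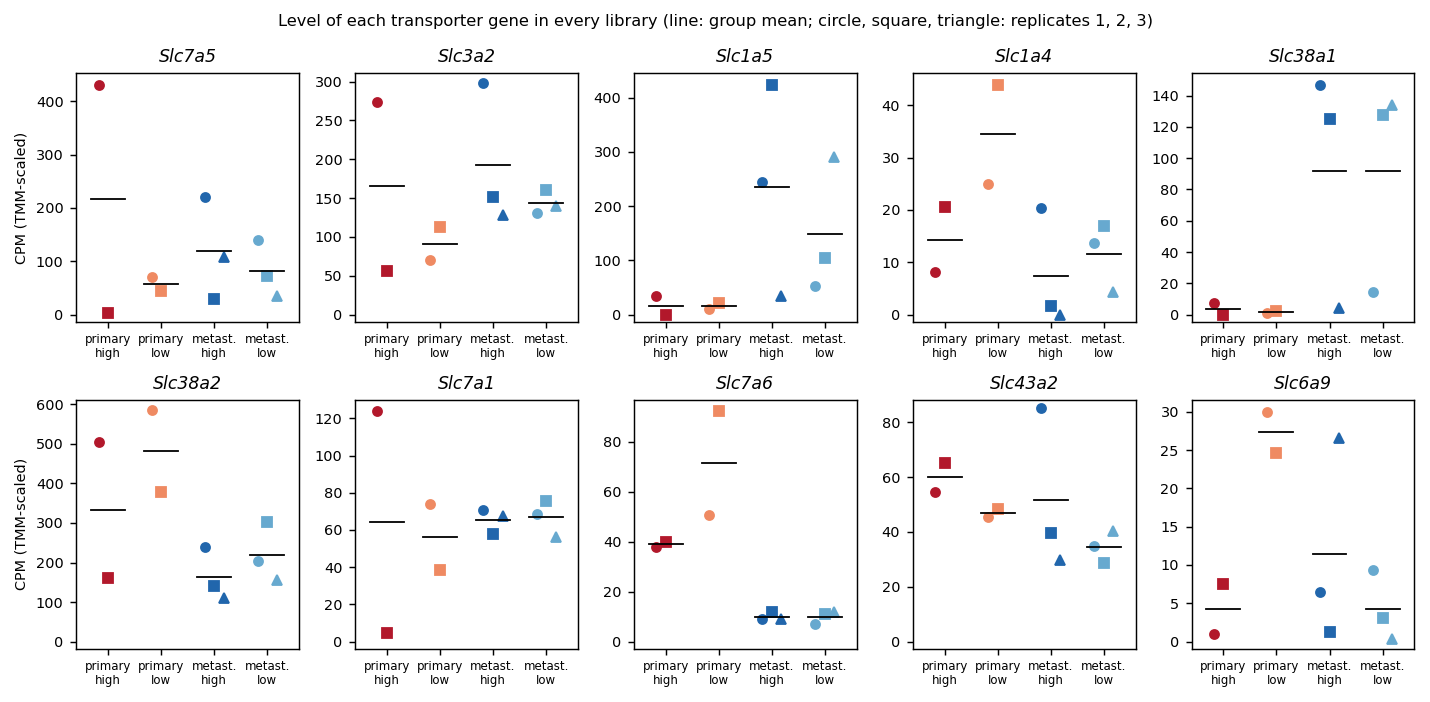
Level in CPM (y axis, from 0, own scale per gene) of each transporter gene in the 10 libraries, grouped by site and c-Myc class (x axis), with replicates as different symbols and the group mean as a line. The 4 primary libraries of Slc7a6 lie between 37.9 and 92.5 CPM and the 6 metastatic ones between 7.15 and 11.8 CPM.

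Per transcript length, Slc3a2 and Slc38a2 were the leading genes of the set. The authors' RPKM values (reads scaled to transcript length, with a scale between libraries unlike that of CPM) were summed over a gene's transcripts. In primary c-Myc-high replicates 1 and 2, Slc7a6, with a single transcript, had 37.9 and 40.1 CPM but 2.25 and 0.580 RPKM. Medians and ranges of RPKM over libraries carry this difference in scale, while ratios within a library do not. Repeated entries, which Slc1a5 and Slc1a4 have, were counted once here, unlike in the CPM values. The median over the 10 libraries was 11.5 for Slc3a2 and 8.96 for Slc38a2. Slc7a5 followed at 3.99, then Slc43a2 at 2.12, Slc1a5 at 2.11 and Slc7a1 at 1.65. Slc7a6 (0.662), Slc38a1 (0.431), Slc6a9 (0.393) and Slc1a4 (0.303) were lowest. Slc3a2 was the highest of the 10 genes in 4 libraries, Slc38a2 in 4, Slc7a5 in 1 and Slc1a5 in 1. Neighbours in this order overlapped widely, since Slc3a2 ranged from 1.14 to 23.0 RPKM, Slc38a2 from 1.87 to 36.1 and Slc7a5 from 0.0575 to 27.2.

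Slc3a2, on the minus strand of chromosome 19 (8706882 to 8723369, GRCm38), was detected in every library. Its level was 274 and 56.0 CPM in primary c-Myc-high cells, 70.2 and 112 in primary c-Myc-low cells, 299, 151 and 128 in metastatic c-Myc-high cells and 130, 161 and 140 in metastatic c-Myc-low cells. The highest and the lowest primary libraries were the 2 c-Myc-high replicates, and all 4 groups overlapped at least one other. The group means were 165 ± 154 CPM (SD, n = 2), 91.3 ± 29.9 (n = 2), 193 ± 92.6 (n = 3) and 144 ± 15.5 (n = 3) in the same order. Its log2 fold change was 0.44 (SE 0.54, adjusted p = 0.644) for metastatic over primary and 0.64 (SE 0.53, adjusted p = 0.640) for c-Myc-high over c-Myc-low cells.

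Slc7a5, on the minus strand of chromosome 8 (121881150 to 121907694), had the largest SD within a group, 302 CPM between the primary c-Myc-high libraries (n = 2). Primary c-Myc-high replicate 1 held 1796 counts (431 CPM) and replicate 2 held 4 counts (3.73 CPM). The primary c-Myc-low libraries had 70.3 and 43.6 CPM, the metastatic c-Myc-high libraries 221, 28.9 and 107 CPM, and the metastatic c-Myc-low libraries 139, 73.2 and 35.1 CPM. Thus the highest and the lowest of all 10 values were replicates of one group, and the groups overlapped. The c-Myc-high cells had a log2 fold change of 1.23 over c-Myc-low cells (SE 0.93, adjusted p = 0.603), which was -1.60 without primary c-Myc-high replicate 1. Between sites it was -0.17 (SE 0.91, adjusted p = 0.936), and 2.62 without the same library. The values -1.60 and 2.62 rest on replicate 2 as the only primary c-Myc-high library, with its 4 counts. The site difference was also above 0 on the log2(RPKM + 1) scale, at 0.18, where the median of all genes was 0.18.

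Slc7a6, on the plus strand of chromosome 8 (106168857 to 106198706), encodes a second partner of the CD98 heavy chain, which exchanges cationic amino acids such as arginine for neutral ones and sodium. It was measured by a single transcript. Its level was 37.9 and 40.1 CPM in primary c-Myc-high cells and 50.8 and 92.5 CPM in primary c-Myc-low cells. In metastatic cells it was 9.15, 11.8 and 9.20 CPM in the c-Myc-high and 7.15, 11.2 and 11.8 CPM in the c-Myc-low libraries. Every metastatic library was below every primary library, and the metastatic classes had means of 10.06 ± 1.53 and 10.04 ± 2.52 CPM (SD, n = 3 each). The log2 fold change of metastatic over primary cells was -2.39 (SE 0.52, edgeR adjusted p = 0.0121). Within a class it was -1.95 in c-Myc-high (SE 0.74, adjusted p = 0.132) and -2.83 in c-Myc-low cells (SE 0.74, adjusted p = 0.0774), and the difference between these, 0.88 (SE 1.05, adjusted p = 0.896), did not pass.

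The Slc7a6 call was lost without primary c-Myc-low replicate 1 (adjusted p = 0.0507) and without replicate 2 (adjusted p = 0.101), with log2 fold changes of -2.57 and -2.13. It was also lost with limma on log2(RPKM + 1) (-1.06, adjusted p = 0.109) and log2(RPKM + 0.1) (-1.82, adjusted p = 0.133), and in edgeR with the replicate number as a block (-2.43, adjusted p = 0.0674). Beside it, all 18 keratinocyte markers were lower in metastatic cells. Primary c-Myc-low replicate 2, the library with the most Slc7a6 at 92.5 CPM, had the smallest keratinocyte sum of the primary libraries, 31440 CPM, while primary c-Myc-high replicate 2, with 99940 CPM of these markers, had 40.1 CPM of Slc7a6. The part of keratinocyte transcripts in the difference between sites was not tested. Without the 2 libraries rich in salivary gland transcripts, the log2 fold change was -2.35, with replicate 2 alone left in the metastatic c-Myc-high group.

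**Figure D2:**
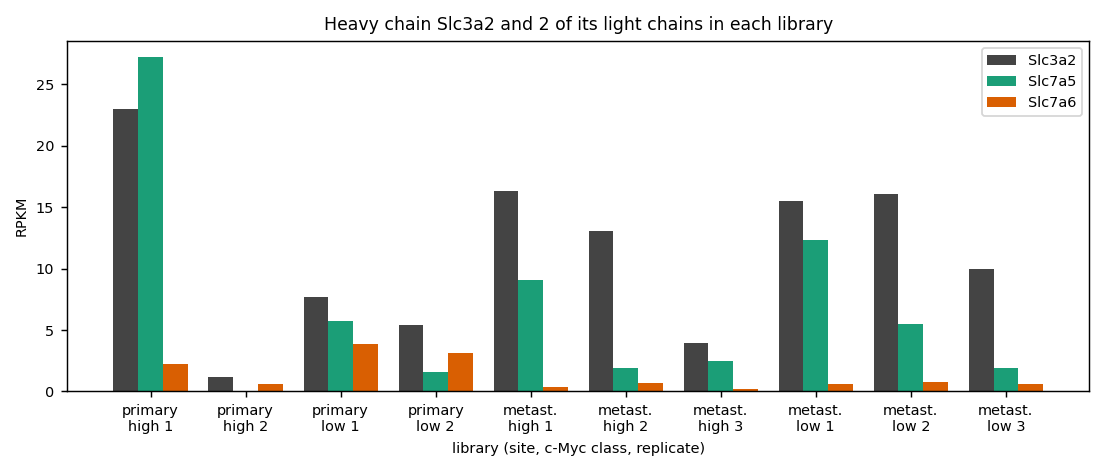
RPKM (y axis, linear, bars from 0) of the CD98 heavy chain gene Slc3a2 and the light chain genes Slc7a5 and Slc7a6 in each of the 10 libraries (x axis). Slc7a5 exceeds Slc7a6 in all 6 metastatic libraries and in 2 of the 4 primary ones.

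Because the light chains share a heavy chain, their ratios were computed per library from RPKM. The ratio of Slc7a5 to Slc3a2 was above 1 only in primary c-Myc-high replicate 1, at 1.18, and was 0.0502 in replicate 2. It was 0.745 and 0.292 in primary c-Myc-low cells, 0.556, 0.144 and 0.631 in metastatic c-Myc-high cells and 0.797, 0.341 and 0.189 in metastatic c-Myc-low cells. The ratio of Slc7a5 to Slc7a6 ranged from 2.58 to 26 in the 6 metastatic libraries and from 0.0991 to 12.1 in the 4 primary libraries. Slc7a6 was therefore the more abundant of these light chain transcripts in 2 primary libraries, primary c-Myc-high replicate 2 and primary c-Myc-low replicate 2, and in no metastatic library.

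Slc43a2, on the plus strand of chromosome 11 (75531694 to 75577575), encodes LAT4, which carries branched-chain amino acids and phenylalanine without a heavy chain or exchange. It ranged from 28.8 to 85.3 CPM over the 10 libraries. The levels were 54.7 and 65.3 CPM in primary c-Myc-high cells, 45.5 and 48.6 in primary c-Myc-low cells, 85.3, 39.5 and 29.7 in metastatic c-Myc-high cells and 34.7, 28.8 and 40.3 in metastatic c-Myc-low cells. In the primary tumours the classes did not overlap, with c-Myc-high cells higher as for 10.8% of all genes tested, but the log2 fold change of 0.35 (SE 0.77, adjusted p = 0.885) did not pass. Over both classes the difference between sites was -0.33 (SE 0.50, adjusted p = 0.715), and 0.09 on the log2(RPKM + 1) scale, where the median of all genes was 0.18. An opposite-strand gene, Gm45606, shares 922 exonic bases with Slc43a2, and the strand used in counting is not known from the sources at hand.

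Slc7a1, on the minus strand of chromosome 5 (148327410 to 148399904), encodes CAT1, the main importer of arginine and lysine in many cell types. In the 6 metastatic libraries its level was narrow, with 70.5, 57.7 and 67.5 CPM in c-Myc-high and 68.8, 75.8 and 56.3 CPM in c-Myc-low cells. The primary libraries spanned these values, with 124 and 4.66 CPM in c-Myc-high and 73.8 and 38.7 CPM in c-Myc-low cells. Metastatic over primary cells had a log2 fold change of 0.13 (SE 0.68, adjusted p = 0.935). Without primary c-Myc-high replicate 1 it was 1.88. That value rests on replicate 2 as the only primary c-Myc-high library, with 5.02 counts of Slc7a1. Its 4.66 CPM is near the 2.80 CPM that 3 counts are worth there.

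Slc1a5, on the plus strand of chromosome 7 (16781340 to 16798274), was higher in each metastatic library than in any primary one. The primary libraries had 33.8 and 0 CPM in c-Myc-high and 9.77 and 22.3 CPM in c-Myc-low cells, the count of 0 allowing up to 2.80 CPM. The metastatic libraries had 245, 424 and 35.3 CPM in c-Myc-high and 52.7, 104 and 291 CPM in c-Myc-low cells. The lowest metastatic value, 35.3 CPM, lay close to the highest primary one. One transcript entry of this gene repeats another value for value in every library; with repeated entries counted once, the levels were 16.9, 0, 5.02 and 11.1 CPM in primary and 124, 212, 19.6, 26.4, 53.4 and 146 CPM in metastatic libraries. The log2 fold change of metastatic over primary cells was 3.48 (SE 1.08, adjusted p = 0.0527) with the entries summed and 3.47 (adjusted p = 0.0427) with repeats counted once. Within a class it was 3.74 in c-Myc-high (adjusted p = 0.161) and 3.23 in c-Myc-low cells (adjusted p = 0.344). The difference over both classes passed in 2 fits that left out a library, at 3.74 (adjusted p = 0.0360) with metastatic c-Myc-high replicate 3 left out and at an adjusted p of 0.0223 with primary c-Myc-high replicate 1 left out. The latter fit gave 8.13, and 13.1 within c-Myc-high cells, against a single primary c-Myc-high library at 0, which sets no size.

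Slc1a4, on the minus strand of chromosome 11 (20302180 to 20332713), encodes ASCT1, an exchanger of alanine, serine and cysteine related to ASCT2. It had 8.16 and 20.5 CPM in primary c-Myc-high cells, 25.0 and 43.9 in primary c-Myc-low cells, 20.4, 1.63 and 0 in metastatic c-Myc-high cells and 13.7, 16.9 and 4.41 in metastatic c-Myc-low cells. Its 2 transcript entries hold the same value in every library, so each level is 2 times that of one entry. The sites overlapped, with a log2 fold change of -1.24 (SE 0.998, adjusted p = 0.448). Per length and with repeated entries counted once, Slc1a5 exceeded Slc1a4 in all 6 metastatic libraries and in 1 of the 4 primary ones, primary c-Myc-high replicate 1.

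Slc38a1, on the minus strand of chromosome 15 (96571418 to 96642913), was low in every primary library. It had 7.20 and 0 CPM in primary c-Myc-high and 1.21 and 2.60 CPM in primary c-Myc-low cells. The metastatic libraries had 147, 125 and 4.09 CPM in c-Myc-high and 14.8, 128 and 134 CPM in c-Myc-low cells. In 4 of the 6 metastatic libraries it was thus at 125 to 147 CPM, while metastatic c-Myc-high replicate 3 lay below the highest primary library. The log2 fold change of metastatic over primary cells was 5.06 (SE 1.22, edgeR adjusted p = 0.0192). Within a class it was 4.50 in c-Myc-high (SE 1.68, adjusted p = 0.128) and 5.61 in c-Myc-low cells (SE 1.78, adjusted p = 0.139). Leaving out primary c-Myc-high replicate 2 (adjusted p = 0.0536), primary c-Myc-low replicate 1 (0.126) or primary c-Myc-low replicate 2 (0.0861) ended the call, with log2 fold changes of 4.64, 4.83 and 5.38. It also ended with limma-voom (4.87, adjusted p = 0.0895), with limma on log2(RPKM + 1) (1.51, adjusted p = 0.0877) and with a replicate block in edgeR (5.34, adjusted p = 0.0558). Without primary c-Myc-high replicate 1 the fitted value was 8.66 over both classes (adjusted p = 0.0376) and 11.8 within c-Myc-high cells (adjusted p = 0.157). In that fit the only primary c-Myc-high library is at 0, so the fitted value is no measure of size.

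Leukocyte transcripts varied in the same libraries as Slc38a1 and Slc1a5. The 4 metastatic libraries with 125 to 147 CPM of Slc38a1 had pan-leukocyte sums of 1272, 1601, 3529 and 5140 CPM, and the other 2, with 4.09 and 14.8 CPM of Slc38a1, had sums of 277 and 377 CPM. Slc1a5 was at 104 to 424 CPM in the former 4 and at 35.3 and 52.7 CPM in the latter. The defining leukocyte gene Ptprc was at 55.7 to 620 CPM in metastatic and 0.723 to 2.88 CPM in primary libraries, and 9 of 10 pan-leukocyte and 11 of 11 B cell markers were called higher in metastatic cells. The part of leukocyte transcripts in the levels of Slc38a1 and Slc1a5 was not tested. Without the 2 libraries rich in salivary gland transcripts, the log2 fold change between sites was 5.22 for Slc38a1 and 3.85 for Slc1a5. That fit leaves replicate 2 alone among the metastatic c-Myc-high libraries.

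**Figure D3:**
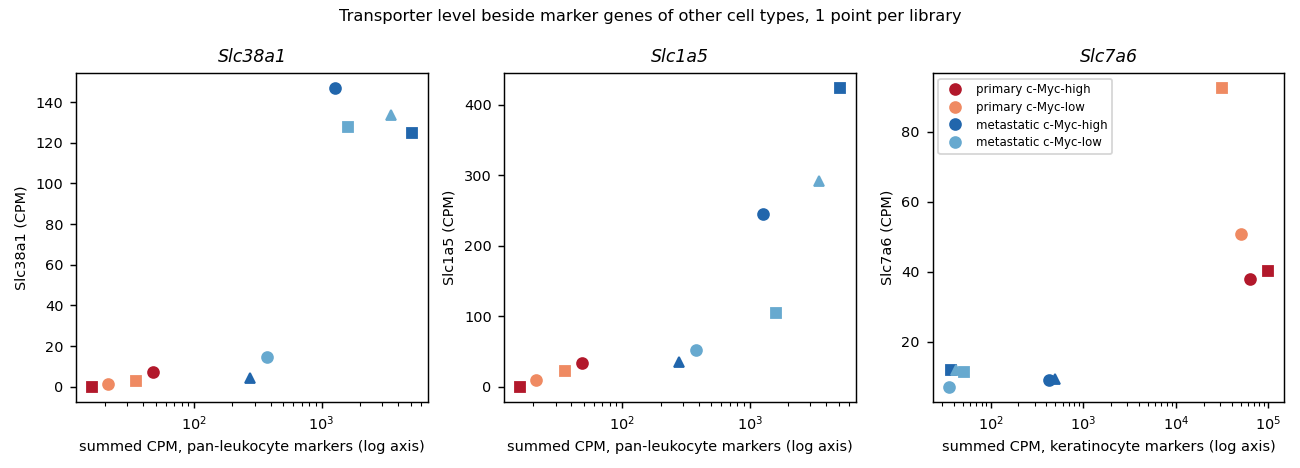
Level in CPM (y axis) of Slc38a1 and Slc1a5 against the summed CPM of 10 pan-leukocyte markers, and of Slc7a6 against that of 18 keratinocyte markers (x axes, log scale), with 1 point per library and colours for the 4 groups. The 4 metastatic libraries with pan-leukocyte sums of 1272 CPM or more hold the highest Slc38a1 and Slc1a5 levels, and the 4 primary libraries with keratinocyte sums from 31440 CPM hold the highest Slc7a6 levels.

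Slc38a2, the neighbour of Slc38a1 in family and chromosome (chromosome 15, 96687392 to 96699730, minus strand), is known to be induced when amino acids are scarce. It was detected at 506 and 160 CPM in primary c-Myc-high cells, 587 and 379 in primary c-Myc-low cells, 240, 140.0 and 111 in metastatic c-Myc-high cells and 203, 302 and 156 in metastatic c-Myc-low cells. The 3 highest libraries were primary, while primary c-Myc-high replicate 2 lay within the metastatic range. Metastatic over primary cells had a log2 fold change of -1.08 (SE 0.49, edgeR adjusted p = 0.161), past 0.05 only before adjustment. Per length, Slc38a1 was below Slc38a2 in all 10 libraries. Their ratio was at most 0.00900 in primary libraries and 0.0234 to 0.569 in metastatic ones.

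Slc6a9, on the plus strand of chromosome 4 (117834506 to 117875198), encodes the glycine importer GLYT1. It had 0.960 and 7.46 CPM in primary c-Myc-high cells, 30.0 and 24.6 in primary c-Myc-low cells, 6.46, 1.22 and 26.6 in metastatic c-Myc-high cells and 9.32, 3.09 and 0.368 in metastatic c-Myc-low cells. The primary classes did not overlap, with c-Myc-high cells lower (log2 fold change -2.79, SE 1.74, adjusted p = 0.520), as for 29.8% of all genes tested. In metastatic cells the log2 fold change was 1.40 (SE 1.32, adjusted p = 1). The difference between these, 4.18 (SE 2.18), had the smallest p of the 10 genes in that comparison, 0.0797 before and 0.749 after adjustment by edgeR. The 26.6 CPM of metastatic c-Myc-high replicate 3 came from a retained-intron transcript (29.99 estimated counts) and a transcript annotated for nonsense-mediated decay (21.77), with none on protein-coding transcripts. Slc6a9 shares 1429 exonic bases with Ccdc24 on the opposite strand, which had 0 CPM in that library and 12.0 and 17.3 CPM in the primary c-Myc-low libraries. It also shares 46 with B4galt2 and 511 with Gm17114, both on the opposite strand, which had 7.11 and 0 CPM in metastatic c-Myc-high replicate 3. No exon of another gene meets the retained-intron transcript.

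RefSeq promoter entries were found for 7 of the 10 genes. There was none for Slc7a5, Slc1a5 and Slc38a1. The 250 bases upstream of the start site are printed 5′ to 3′ for the called gene Slc7a6 (the first of its 2 entries) and for Slc38a2, which had the next lowest unadjusted p among genes with an entry. They were searched on both strands for the E-box CACGTG, the binding motif of c-Myc with Max, and for GATGCAA, a core of the amino acid response element.
Slc7a6 (GRCm38.p6, chr8:106168604-106168853, plus strand): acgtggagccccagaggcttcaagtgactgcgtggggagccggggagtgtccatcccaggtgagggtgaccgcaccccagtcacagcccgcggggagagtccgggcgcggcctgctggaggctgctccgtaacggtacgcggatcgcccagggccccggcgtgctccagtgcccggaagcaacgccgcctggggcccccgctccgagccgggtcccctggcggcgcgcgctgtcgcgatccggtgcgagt
Slc38a2 (GRCm38.p6, chr15:96699729-96699978, minus strand): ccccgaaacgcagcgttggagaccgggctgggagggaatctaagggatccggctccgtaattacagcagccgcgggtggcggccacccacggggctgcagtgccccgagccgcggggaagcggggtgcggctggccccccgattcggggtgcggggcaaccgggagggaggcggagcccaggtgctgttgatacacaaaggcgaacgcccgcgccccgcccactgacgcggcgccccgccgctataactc
Neither sequence holds either motif, so all letters are in lower case, and G and C make up 74.0% and 72.0% of the bases. None of the 12 entries of the 7 genes held CACGTG, against 6.02% of 32851 promoter windows of the same length, and none held GATGCAA, against 2.19%. These letters are absent from these windows only, and nothing about binding follows from that.

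Across the set, the site comparison over both classes called 1 gene higher and 1 lower of the 10. Of all genes tested, 13.8% were called in it, 8.13% higher and 5.64% lower, so 2 of 10 is near the background. With repeated transcript entries counted once, Slc1a5 was called as well. Unadjusted p was under 0.05 for 4 of the 10 genes (Slc7a6, Slc38a1, Slc1a5 and Slc38a2), against 30.4% of all genes. The sites did not overlap for Slc7a6 and Slc1a5, against 10.8% of all genes. The median log2 fold change of the 10 genes was -0.25, beside 0.28 for all genes. Within c-Myc-high cells, which the series' own design statement compares between sites, 0 of the 10 were called, against 3.97% of all genes, and 3 had an unadjusted p under 0.05, against 26.2%. DESeq2 called those 3 there, Slc38a1 (adjusted p = 0.0111), Slc7a6 (0.0128) and Slc1a5 (0.0291), and 3248 genes in all. Within c-Myc-low cells 0 were called, against 2.11% of all genes, and 2 had an unadjusted p under 0.05, against 15.1%. Other fits called some of the 10 there too. Slc7a6 was called by DESeq2 (adjusted p = 0.000242), limma-voom (0.000548) and edgeR on the 2 groups alone (0.0108), and in 3 of the 10 fits that left out a library. Slc38a1 was called by DESeq2 (0.00145), limma-voom (0.0155) and edgeR on the 2 groups alone (0.0239), and Slc1a5 by limma-voom (0.0162). In all, DESeq2 called 1687 genes there, limma-voom 3949 and edgeR on the 2 groups alone 2276, against 355.

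**Figure D4:**
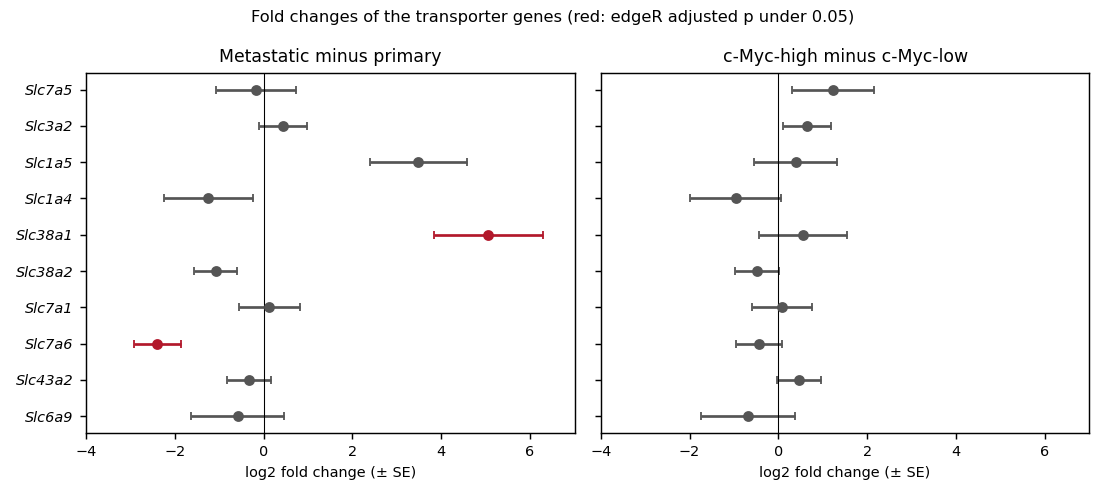
Log2 fold change with SE (x axis) of the 10 transporter genes (y axis) from edgeR for metastatic over primary cells and for c-Myc-high over c-Myc-low cells, with called genes in red. Slc7a6 at -2.39 and Slc38a1 at 5.06 are called between sites, and no gene is called between classes.

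Between c-Myc classes over both sites, edgeR called 0 of the 10 genes and 0 of all 16805, and 0 of the 10 and 12.9% of all genes (2160) had an unadjusted p under 0.05. DESeq2 called 500 genes and limma-voom 1 in the same comparison, none of the 10 among them. The log2 fold changes of c-Myc-high over c-Myc-low cells were 1.23 for Slc7a5, 0.64 for Slc3a2, 0.56 for Slc38a1 (SE 0.99), 0.46 for Slc43a2 (SE 0.50), 0.39 for Slc1a5 (SE 0.93) and 0.08 for Slc7a1 (SE 0.68). They were -0.43 for Slc7a6 (SE 0.53), -0.48 for Slc38a2 (SE 0.50), -0.69 for Slc6a9 (SE 1.06) and -0.96 for Slc1a4 (SE 1.02). The 10 genes had a median of 0.24, beside -0.11 for all genes. On the authors' RPKM scale, as log2(RPKM + 1) tested with limma, the 6 genes with values above 0 turned to values between -0.41 and -0.02, while the median of all genes moved from -0.11 to -0.31. Without primary c-Myc-high replicate 1, the values of Slc7a5, Slc3a2, Slc1a5, Slc38a1 and Slc7a1 were -1.60, -0.06, -4.37, -3.14 and -1.72. All rest on a lone primary c-Myc-high library. It held 0 counts of Slc1a5 and Slc38a1, 4 of Slc7a5, 5.02 of Slc7a1 and 59.8 of Slc3a2.

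In primary tumours the class comparison called 0 of the 10 genes and 0 of all genes, and 0 of the 10 and 11.6% of all genes (1953) had an unadjusted p under 0.05. DESeq2 called 398 genes and limma-voom 2 there. Slc6a9, Slc7a6 and Slc1a4 were lower in primary c-Myc-high cells without overlap, as were 29.8% of all genes. Slc43a2 was higher without overlap, as were 10.8%. The largest differences were in Slc6a9 and in Slc7a5, with a log2 fold change of 1.94 (SE 1.46, adjusted p = 0.591). In metastatic tumours edgeR called 0 genes and 4.8% (807) had an unadjusted p under 0.05, with 0 of the 10 among them, and DESeq2 called 86 and limma-voom 0. Slc38a1, Slc7a6 and Slc7a1 had log2 fold changes of 0.00, 0.01 and -0.04 between the metastatic classes, with SE of 1.20, 0.67 and 0.86. The class effect differed between sites for 0 of the 10 genes and 0 of all genes by edgeR, with 6.84% of all genes (1150) and 0 of the 10 at an unadjusted p under 0.05, and 84 called by DESeq2 and 0 by limma-voom.

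Other genes that carry, sense or use amino acids were read from 6 lists, between sites first. The counts below stand against the 8.13% of all genes called higher and the 5.64% called lower in metastatic cells. Of 30 other amino acid carriers tested, 1 was higher and 1 lower in metastatic cells. Slc7a7, a further light chain of the CD98 heavy chain for cationic amino acids, had a mean of 10.1 CPM in metastatic and 1.17 CPM in primary libraries (log2 fold change 5.44, adjusted p = 0.0321), all primary counts coming from 1 library with 5.01 counts. Both primary c-Myc-low libraries were at 0, so the fitted 5.44 sets no size. Slc6a20a, a carrier of proline and other imino acids, had means of 0.671 and 33.2 CPM (log2 fold change -5.69, adjusted p = 0.00900). Slc7a6 and Slc7a7, both light chains for cationic amino acids, were called in opposite directions.

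Of 34 genes of amino acid sensing by mTORC1, 2 were called, both at a higher level in metastatic cells, a smaller share than the 13.8% of all genes called. These were Rragd, a Rag GTPase that recruits mTORC1 to the lysosome, with means of 23.1 and 0.745 CPM (log2 fold change 4.70, adjusted p = 0.0151), and Sesn3, a sestrin, with 25.3 and 3.26 CPM (log2 fold change 3.29, adjusted p = 0.0203). Rag GTPases promote and sestrins restrain mTORC1 activity. Of 25 genes of the amino acid response through ATF4, only Eif2ak4 was called, the kinase GCN2 that senses uncharged tRNA, at means of 25.8 and 7.77 CPM (log2 fold change 2.47, adjusted p = 0.0488).

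Of 33 genes of glutamine, serine and glycine metabolism, 2 were lower and 0 higher in metastatic cells, close to the 5.64% of all genes called lower. Both act in the breakdown of threonine to glycine. Gcat was at 23.1 to 58.8 CPM in primary and 0 to 3.23 CPM in metastatic libraries (log2 fold change -5.00, adjusted p = 0.00649). Tdh had 13.9 and 6.94 CPM in primary c-Myc-low cells, 0.240 and 2.80 CPM in primary c-Myc-high cells, where it held at most 3 counts, and no count in any metastatic library (adjusted p = 0.0190). Its difference between sites thus rests on the 2 primary c-Myc-low libraries. None of 23 genes of the cytosolic aminoacyl-tRNA synthetases and their scaffold was called, by edgeR, the 2 with the lowest p being Qars (log2 fold change -1.40, adjusted p = 0.0783) and Tars (-1.30, adjusted p = 0.186), and 1 of them had an unadjusted p under 0.05.

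Among 15 genes listed as regulators of these transporters, 1 was higher and 2 were lower in metastatic cells, beside 13.8% of all genes called. Tfeb, a transcription factor of lysosomal genes, had means of 27.1 and 4.66 CPM (log2 fold change 2.83, adjusted p = 0.0145). Yap1, the Hippo pathway coactivator, had means of 63.3 and 235 CPM (log2 fold change -2.03, adjusted p = 0.0180), and Mycbp, a c-Myc binding protein, 16.7 and 80.2 CPM (log2 fold change -2.16, adjusted p = 0.0248). Keratinocyte and leukocyte markers differed between the sites in the same libraries, and their part in these list genes was not tested.

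Within c-Myc-high cells, Gcat was the only gene of the 6 lists called between sites (log2 fold change -5.50, adjusted p = 0.0493), and within c-Myc-low cells none was. Between c-Myc classes over both sites, edgeR called no gene of any list. The lowest p belonged to Slc36a1 (-2.05) and Slc7a7 (3.34) among carriers, Rraga (3.32) and Sesn3 (-2.33) in mTORC1 sensing, and Atf5 (4.69) and Vldlr (-3.02) in the ATF4 response, each on the log2 scale for c-Myc-high over c-Myc-low cells. In the remaining lists it belonged to Psph (-1.70) and Glul (1.23), Mars (1.98) and Tars (1.48), and Epas1 (-1.13) and Max (1.08). Their adjusted p ranged from 0.305 to 0.412. The fitted value of Slc7a7 sets no size, since both primary c-Myc-low libraries were at 0 and its class means were 7.73 and 5.32 CPM.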

How the data were processed

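RNA from 10 libraries of flow-sorted mouse melanoma cells was extracted, amplified and sequenced on an Illumina HiSeq, with Ambion and Nugen kits, as the labels' protocols state. The authors deposited 1 table of 92214 transcripts with estimated counts, not scaled between libraries, and RPKM values scaled to transcript length. Between libraries, the RPKM values did not follow the counts scaled to library size, and the fits on RPKM carry this difference. Bowtie2, limma and the mm10 build are named in the submitters' processing notes. The program that assigned reads, the annotation release and the strandedness are not stated in the sources at hand.

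Counts were summed by gene name and rounded. In 3985 genes, transcript entries repeat each other in every library. Where all entries of a gene were equal, 9.56% to 11.6% of values under 60 were whole numbers (within 0.0001), against 10.7% for genes with a single entry, so sums probably count the same reads more than once, and counting repeats once was added as an alternative after seeing the data. So was leaving out the 2 libraries with salivary gland markers above 10000 CPM, which leaves metastatic c-Myc-high replicate 2 alone in its group.

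Genes passing edgeR's expression filter (16805) were fitted with TMM factors in edgeR 4.0.16 (R 4.3.3), with robust quasi-likelihood tests on the 4 groups together, a shared spread and no covariate, and p adjusted by Benjamini-Hochberg per comparison. Standard errors came from the F statistic. An adjusted p-value is edgeR's where no other tool is named. Alternatives were DESeq2 1.42.0, limma 3.58.1 (voom with quality weights, and trend on log2 RPKM with pseudocounts of 1 and 0.1), RLE factors, no filter, the leading transcript per gene, a replicate block, fits of 2 groups only and leaving out each library. Scripts were tested on simulated data. A pass was required only of edgeR at a spread well below that of these libraries, so it tells nothing about recovery at theirs. The 10 genes, the 6 related lists and the marker lists were chosen with earlier results of these data known. All 10 genes are plotted with log2 fold change and SE for the site comparison over both classes and the class comparison over both sites. For the other comparisons, values are given for only some of the 10. Of each list, the 2 plotted comparisons name the called genes with the lowest p, at most 4 per direction. Where none was called, the 2 genes with the lowest p are named. Between sites within a c-Myc class, only called list genes are named. No list gene is named for the remaining comparisons. Positions are from GENCODE M21, which holds 95.7% of the table's transcripts, and promoters from RefSeq.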

Additional observations from a re-analysis of the deposited data

How the results depend on the processing

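For the 10 transporter genes, 27 tested differences were recomputed under 546 alternatives in all, and 481 kept direction and side of the threshold. A call was lost in 11, gained in 20, and the direction turned in 34. Only 2 of the 27 were called in the main fit, Slc7a6 and Slc38a1 between sites over both classes. All 11 lost calls were theirs, under 10 fits that left out a library and 10 other settings each. Most of the 481 were uncalled differences that stayed uncalled. Between sites over both classes, Slc7a6 lost its call with log2(RPKM + 1) (-1.06, adjusted p = 0.109) and log2(RPKM + 0.1) (-1.82, 0.133), and Slc38a1 with limma-voom (4.87, 0.0895) and log2(RPKM + 1) (1.51, 0.0877). Slc1a5 gained one with DESeq2 (3.48, 0.00190), log2(RPKM + 0.1) (3.63, 0.0363), no filter (3.39, 0.0372) and on leaving out metastatic c-Myc-high replicate 3 (3.74, 0.0360) or primary c-Myc-high replicate 1 (8.13, 0.0223). The causes were not tested.

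Same-numbered libraries did not vary together, the correlation of their deviations from group means running from -0.305 to 0.153 over 13 pairs. Whether the numbers pair the libraries cannot be decided from this. In groups of 2 the deviations mirror each other, and replicates were far apart. Some metastatic libraries of different numbers did vary together: c-Myc-high 2 with c-Myc-low 3 (0.556), 3 with 1 (0.359) and 1 with 2 (0.235), whose pan-leukocyte sums were 5140 and 3529, 277 and 377, and 1272 and 1601 CPM. The remaining metastatic pairs of different numbers were below 0, c-Myc-high 2 with c-Myc-low 1 (-0.487), 1 with 3 (-0.225) and 3 with 2 (-0.0243). Deviations within a group sum to 0, so values above 0 come with values below 0. The labels do not link these libraries, and the tests treat them as separate. With a replicate block, Slc7a6 had -2.43 (adjusted p = 0.0674) and Slc38a1 5.34 (0.0558) between sites, Slc7a5 turned to 0.28, and Slc7a1 turned to -0.16 between classes. The block gave 965 calls between sites over both classes, 150 in c-Myc-high and 140 in c-Myc-low cells.

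Directions that turned between sites were Slc7a5 at 0.18 and 0.76 and Slc43a2 at 0.091 and 0.12 with pseudocounts of 1 and 0.1 RPKM. Beside these, the median of all genes was 0.18 and 0.48, against 0.28 by edgeR. Slc7a1 was at -0.000705 without the salivary-rich libraries. Between classes over both sites, the pseudocounts of 1 and 0.1 gave Slc7a5 -0.022 and -0.56, Slc3a2 -0.26 and -0.40, Slc1a5 -0.13 and -0.71, Slc38a1 -0.14 and -0.34, Slc7a1 -0.41 and -0.996, and Slc43a2 -0.18 and -0.46. The median of all genes moved as well, from -0.11 by edgeR to -0.31 and -0.82 with these pseudocounts. Slc7a1 was at -0.062 there without the salivary-rich libraries. Leaving out each library moved the site difference of Slc7a5 from -0.64 to 2.62, of Slc7a1 from -0.33 to 1.88 and of Slc6a9 from -1.35 to 0.45. It moved the class difference of Slc7a5 from -1.60 to 1.72, Slc3a2 from -0.060 to 0.98, Slc1a5 from -4.37 to 0.86, Slc38a1 from -3.14 to 0.94, Slc7a1 from -1.72 to 0.54 and Slc6a9 from -1.70 to 0.077. The values 2.62, 1.88, -1.60, -4.37, -3.14 and -1.72 came from the fit without primary c-Myc-high replicate 1. The lone library left in that group held 4 counts of Slc7a5, 5.02 of Slc7a1 and 0 of Slc1a5 and Slc38a1.

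Counts of called genes moved more. Without the salivary-rich libraries, metastatic c-Myc-high replicate 2 is alone in its group, so a change in calls there cannot be told apart from lost replication. Between sites over both classes, 2313 genes by edgeR became 3963 with DESeq2, 796 with log2(RPKM + 1) and 722 to 2786 when each library was left out. In c-Myc-high cells, 667 became 3248 with DESeq2, 165 with limma-voom, 75 and 278 with pseudocounts of 1 and 0.1 RPKM, 335 with the leading transcript, 1273 with no filter, 155 with the 2 groups alone, 0 without the salivary-rich libraries (4191 at an unadjusted p under 0.05) and 299 to 1232 when each library was left out. In c-Myc-low cells, 355 became 1687 with DESeq2, 3949 with limma-voom, 549 with log2(RPKM + 0.1), 225 with the leading transcript, 775 with no filter, 2276 with the 2 groups alone, 665 without the salivary-rich libraries and 127 to 572 when each library was left out. Between classes edgeR called 0 in each comparison. In primary cells the alternatives gave 398 with DESeq2, 2 with limma-voom, 11 and 5 with pseudocounts of 1 and 0.1 RPKM and 2 with no filter. In metastatic cells they gave 86 with DESeq2, 2 with log2(RPKM + 0.1) and 0 to 33 when each library was left out, the 33 without metastatic c-Myc-high replicate 2. Over both sites they gave 500 with DESeq2, 1 with limma-voom, 2 with log2(RPKM + 0.1), 2 with no filter and 0 to 17 when each library was left out. For the difference between sites they gave 84 with DESeq2 and 1 with no filter.

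Groups of 2 and 3 libraries with a coefficient of variation of 0.876 can leave differences of single genes undetected. The size of difference needed for a call is not given here. Counts under 3 in the shallowest library stand for up to 2.80 CPM.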

Other observations

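The leading transcript entry of some of the genes differed between libraries. For Slc43a2, primary c-Myc-high replicate 1 had 157.8 estimated counts on ENSMUST00000108433, which was at 0 in the other 9 libraries, and 0 on ENSMUST00000042561, which was the leading entry in 8 libraries. Both are annotated as protein-coding with 14 exons. For Slc6a9, ENSMUST00000063857 led in both primary c-Myc-low and in 5 of the 6 metastatic libraries, and was at 0 or 1.49 counts in the primary c-Myc-high libraries. For Slc38a1, ENSMUST00000088454 led in 8 of the 9 libraries with counts, and ENSMUST00000088452 led in metastatic c-Myc-low replicate 1, where ENSMUST00000100262 was at 0, against 264.1 and 129.3 estimated counts in the other replicates of that group. Slc3a2 was shared out almost alike in all libraries, its leading entry holding 70.9% to 82.7% of the estimated counts.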
